A study of Mus musculus with 4 samples.

Results

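The 10 genes described here, Pdcd1, Ctla4, Lag3, Tigit, Havcr2, Icos, Tox, Cd28, Tnfrsf4 and Cd274, are the checkpoint and costimulation genes of T cells. They were taken by symbol from the 32290 features of 4 single-cell RNA sequencing (scRNAseq) libraries of mouse adipose tissue, and were followed across CD4, regulatory, CD8 and gamma delta T cells. Each library was 1 group: WT and KO, each from subcutaneous (SC) and from visceral intraperitoneal (IP) fat. WT mice had the genotype Tie2e-cre; TERT+/+; mTmG and KO mice Tie2e-cre; TERTfl/fl; mTmG, so that both genotypes carried the recombinase and the membrane Tomato to membrane GFP reporter. The Tie2e promoter that drives Cre is described in the study as specific to endothelial cells (EC). All mice were males 7 months old that had been fed high-fat diet for 5 months. How many mice were behind a library was not stated, and the labels name both cells and nuclei as the material loaded.

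CD28 and ICOS are costimulatory receptors that strengthen the response of a T cell to antigen, and CTLA-4 and PD-1 (the product of Pdcd1) are inhibitory receptors of the same family. CTLA-4 competes with CD28 for CD80 and CD86, and PD-1 is engaged by PD-L1, the product of Cd274. LAG-3, TIGIT and TIM-3 (the product of Havcr2) are further inhibitory receptors, OX40 (the product of Tnfrsf4) is a costimulatory receptor of the TNF receptor family, and TOX is a nuclear factor of chronically stimulated CD8 cells. Adipose tissue is known for regulatory T cells and for gamma delta T cells that make interleukin 17.

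The 4 libraries held 4927 barcodes and 49915547 unique molecular identifiers (UMIs, each standing for 1 captured transcript), from 10015201 to 15533961 UMIs a library. Of 4113 cells kept, 1860 were T cells by their Cd3d, Cd3e and Cd3g UMIs, 457, 1158, 124 and 121 in WT SC, KO SC, WT IP and KO IP, with median depths between 7880 and 9165 UMIs. Trac, Trbc1, Trbc2, Cd2 and Lck, which the rule did not use, all had UMIs in each subset of each library but for Lck in the 2 regulatory cells of KO IP. Tert, the deleted gene, had 2 UMIs in the T cells of WT SC and 0 in those of the other 3 libraries, so its loss could not be checked in T cells at this depth. KO SC and WT IP shared 93 barcodes, 71 of them stromal cells in both and 1 a T cell in both, with the KO SC copy at a median of 1.71% of the UMIs of the WT IP copy. WT SC and KO IP shared 1 barcode, as did KO SC and KO IP. Without these barcodes 2 ratios given below fell under 2-fold, Cd28 in SC gamma delta cells at -0.996 and Pdcd1 in all IP T cells at 0.89, and no gene crossed the threshold of the contrasts between subsets. A T cell over 50000 UMIs was found 3 times in WT SC, 2 times in KO SC and 1 time in each IP library, and values without it are given beside the main results that rest on such a cell.

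CD4 cells, with a Cd4 UMI and no Foxp3, Cd8a, Cd8b1 or Trdc UMI, numbered 109, 284, 32 and 28 in WT SC, KO SC, WT IP and KO IP. Regulatory cells, with a Foxp3 UMI, numbered 22, 48, 1 and 2 in the same order, CD8 cells 188, 488, 37 and 26, and gamma delta cells, with a Trdc UMI and no Cd4 or Cd8b1 UMI, 32, 122, 19 and 38. The other 106, 216, 35 and 27 T cells met no rule. Markers outside the rule went with the labels: Il2ra, Ikzf2, Il1rl1, Gata3 and Klrg1 summed to 2189 and 2989 CPM (UMIs of a gene per 1000000 UMIs of the class) in the regulatory cells of WT SC and KO SC, against 109 to 424 CPM in CD4 cells. Tcrg-C1, Il17a, Il23r, Blk and Cd163l1 summed to 2792 to 4906 CPM in gamma delta cells and to 8.73 to 188 CPM in CD4 cells. Ccl5, Nkg7 and Gzmk summed to 941 to 8484 CPM in CD8 cells, but also to 2173 and 911 CPM in the CD4 cells of WT IP and KO IP, against 15.5 and 18.3 CPM in those of WT SC and KO SC.

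Cd28, Ctla4 and Icos are neighbors on GRCm38 chromosome 1, plus strand. Cd28 (ENSMUSG00000026012) spans 60716800 to 60773359, Ctla4 (ENSMUSG00000026011) 60887000 to 60915832 and Icos (ENSMUSG00000026009) 60977927 to 61000320, with gaps of 113.641 and 62.095 kb between them. Pdcd1 (ENSMUSG00000026285) lies on the minus strand of the same chromosome, 94038305 to 94052553. Tox (ENSMUSG00000041272, minus strand, 6686353 to 6991557) and Tnfrsf4 (ENSMUSG00000029075, plus strand, 156013843 to 156016612) are on chromosome 4, Lag3 (ENSMUSG00000030124, minus strand, 124904361 to 124911705) on chromosome 6, Havcr2 (ENSMUSG00000020399, plus strand, 46454935 to 46481255) on chromosome 11, Tigit (ENSMUSG00000071552, minus strand, 43648867 to 43664146) on chromosome 16 and Cd274 (ENSMUSG00000016496, plus strand, 29367455 to 29388095) on chromosome 19. All 10 are annotated as protein coding. Because genes differ in length and whether intronic reads were counted is not stated, levels are compared below between cells for 1 gene and not between genes.

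Ctla4, Tigit, Tnfrsf4 and Cd274 were higher together in regulatory than in CD8 cells, as described below, and are therefore shown (Icos and Tox had no entry) with the 250 bases upstream of their RefSeq start (GRCm38.p6, 5′ to 3′ on the strand of the gene). Capitals mark the NFAT core GGAAA or its reverse complement TTTCC.
Ctla4, chr1:60908775-60909024, plus strand: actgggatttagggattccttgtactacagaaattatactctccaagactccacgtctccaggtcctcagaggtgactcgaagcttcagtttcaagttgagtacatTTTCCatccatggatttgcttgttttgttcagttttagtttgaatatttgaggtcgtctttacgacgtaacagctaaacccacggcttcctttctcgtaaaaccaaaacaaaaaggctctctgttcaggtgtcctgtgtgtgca
Tigit, chr16:43664185-43664434, minus strand: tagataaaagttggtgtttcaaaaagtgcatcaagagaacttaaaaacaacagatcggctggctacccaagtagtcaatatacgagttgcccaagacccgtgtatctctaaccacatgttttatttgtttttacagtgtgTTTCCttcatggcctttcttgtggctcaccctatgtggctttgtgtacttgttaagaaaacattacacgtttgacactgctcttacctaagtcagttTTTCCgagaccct
Tnfrsf4, chr4:156013445-156013694, plus strand: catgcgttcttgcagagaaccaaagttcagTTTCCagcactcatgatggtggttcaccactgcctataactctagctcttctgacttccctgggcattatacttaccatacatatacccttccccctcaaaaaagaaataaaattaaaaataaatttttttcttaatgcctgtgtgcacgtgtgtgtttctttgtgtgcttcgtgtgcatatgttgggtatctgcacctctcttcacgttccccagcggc
Cd274, chr19:29367188-29367437, plus strand: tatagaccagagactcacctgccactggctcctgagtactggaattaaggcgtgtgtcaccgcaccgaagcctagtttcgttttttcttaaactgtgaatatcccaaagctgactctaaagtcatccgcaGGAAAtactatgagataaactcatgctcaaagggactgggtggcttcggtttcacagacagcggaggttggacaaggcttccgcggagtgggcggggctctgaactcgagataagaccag
The core matched 1 time in the Ctla4, Tnfrsf4 and Cd274 windows and 2 times in that of Tigit, and 55.6% of 32851 windows of this length held it. The NF-kB letters GGGNNNNNCC (in 45.8% of windows), the AP-1 letters TGANTCA (6.75%) and the forkhead letters TGTTTAC (3.17%), searched on both strands, matched in none of these 4 windows. The RefSeq starts of all 4 genes differ from the starts of the gene spans above.

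Ctla4 was highest in regulatory cells. Its level in regulatory cells was 1757 CPM in WT SC and 1874 CPM in KO SC, where 100% of 22 and 93.8% of 48 such cells had a UMI. CD4 cells had 558, 600, 463 and 435 CPM in WT SC, KO SC, WT IP and KO IP. CD8 cells had 152, 186, 274 and 195 CPM in the same order, below every CD4 value, and gamma delta cells had 36.0, 31.6, 5.92 and 96.9 CPM, below every CD8 value. In edgeR's quasi-likelihood test over 14 profiles, each the summed counts of 1 subset in 1 library, with the library as a block, regulatory cells exceeded CD4 cells by 1.79 ± 0.40 on the log2 scale (SE) with an adjusted p of 0.0370, but did not pass with 2 UMIs required for a subset (1.69, edgeR adjusted p = 0.125). They exceeded CD8 cells by 3.11 ± 0.42 (edgeR adjusted p = 0.000739). Gamma delta cells lay at -3.62 ± 0.41 against CD4 cells (edgeR adjusted p = 8.57e-05). CD8 cells lay at -1.33 ± 0.34 against CD4 cells and did not pass the threshold of 0.05 (edgeR adjusted p = 0.0639). B cells, which are not known for this gene, had a Ctla4 UMI in 64 of 802 cells, or 7.98%, against 17.1% of gamma delta cells, 47.9% of CD8 cells and 52.1% of CD4 cells.

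**Figure D1:**
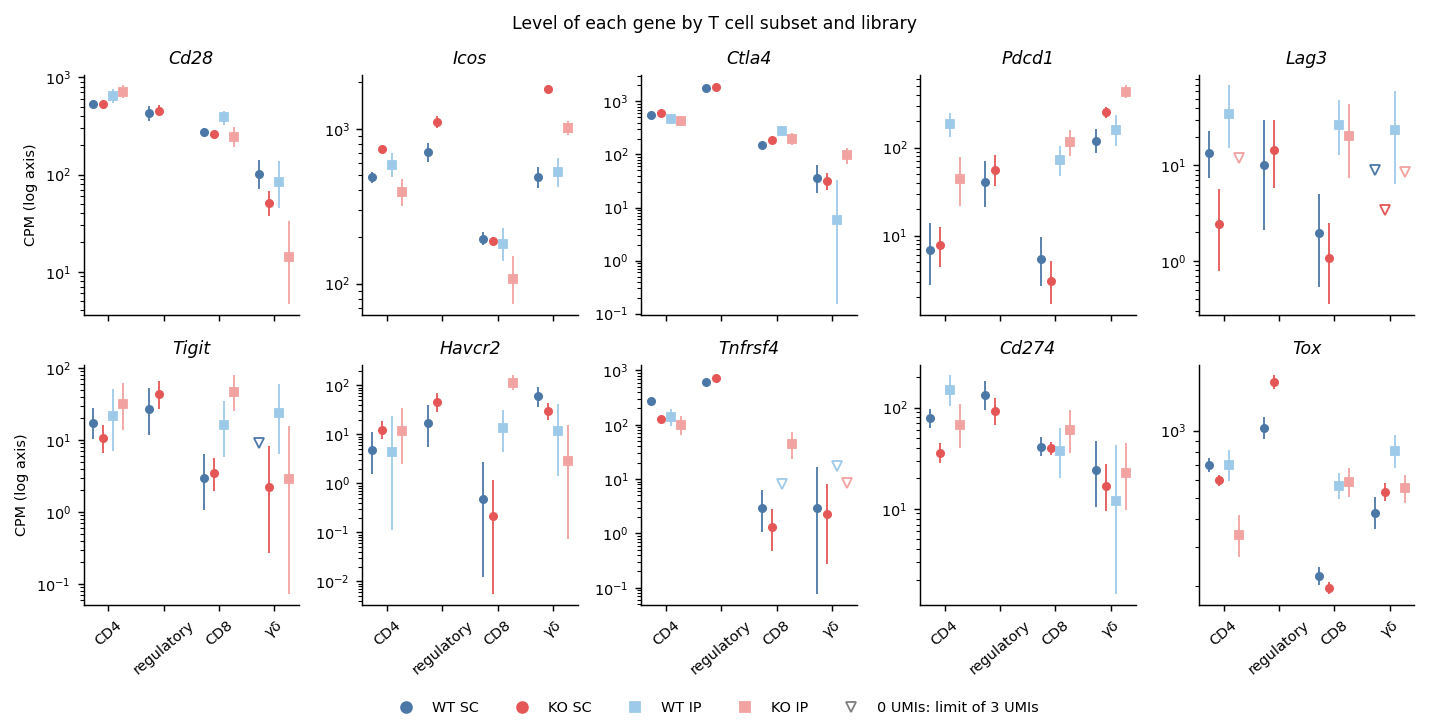
Level of each of the 10 genes in CPM (log axis, a scale of its own for each gene) in the 4 T cell subsets of the 4 libraries, with exact 95% Poisson intervals that cover counting error only; open triangles mark the limit of 3 UMIs where no UMI was counted, and the 1 and 2 regulatory cells of the IP libraries are left out. Ctla4 and Tnfrsf4 were highest in regulatory cells, and Pdcd1 in CD4 and CD8 cells lay higher in both IP libraries than in both SC libraries.

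Tnfrsf4, the gene of OX40, had the widest range. Regulatory cells had 602 CPM in WT SC and 728 in KO SC, and 86.4% and 87.5% of them had a UMI. CD4 cells had 269, 126, 140 and 99.9 CPM in WT SC, KO SC, WT IP and KO IP. Of the 278 UMIs of WT SC, 156 came from 1 cell, without which the level there was 130 CPM. CD8 cells had 2.94, 1.29, 0 and 43.7 CPM, and all 13 UMIs behind the KO IP value came from 1 cell of 107406 UMIs. Gamma delta cells had 1 UMI in WT SC, 2 in KO SC and 0 in both IP libraries, and B cells had none. The edgeR difference was -5.07 ± 0.86 for CD8 against CD4 cells (adjusted p = 0.0206), -6.47 ± 1.19 for gamma delta against CD4 cells (adjusted p = 0.00781) and 7.10 ± 0.98 for regulatory against CD8 cells (adjusted p = 0.00313). Regulatory against CD4 cells gave 2.04 ± 0.74, which did not pass (edgeR adjusted p = 0.192), but passed at 2.41 when the cells over 50000 UMIs were left out and at 2.96 when CD4 cells with Il2ra and Ikzf2 UMIs were counted as regulatory. Over all alternatives its adjusted p ranged from 8.20e-05 to 0.740.

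Icos, whose product is induced on activation, was lowest in CD8 cells. They had 196, 188, 181 and 108 CPM in WT SC, KO SC, WT IP and KO IP, below every CD4 value, which were 485, 736, 585 and 391 CPM. The edgeR difference of CD8 from CD4 cells was -1.59 ± 0.31 (adjusted p = 0.0145; 0.0990 without the library block), and that of regulatory from CD8 cells 2.003 ± 0.37 (adjusted p = 0.00464). Regulatory cells, at 704 and 1105 CPM in WT SC and KO SC, were not separated from CD4 cells (0.41 ± 0.38, edgeR adjusted p = 0.620). Gamma delta cells ranged from 489 CPM in WT SC to 1813 CPM in KO SC, and their difference from CD4 cells, 0.71 ± 0.30, did not pass (edgeR adjusted p = 0.139). Only 4 of 802 B cells (median depth 4902.5 to 7373 UMIs in the 4 libraries) and 3 of 766 stromal cells had an Icos UMI, against 83.9% of gamma delta cells (median depth 7155.5 to 10119.5 UMIs).

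Cd28 marked the alpha beta subsets. CD4 cells had 534, 529, 642 and 711 CPM in WT SC, KO SC, WT IP and KO IP, and regulatory cells had 428 and 453 CPM in WT SC and KO SC. CD8 cells had 276, 263, 386 and 245 CPM, and gamma delta cells 102, 50.8, 82.8 and 14.3 CPM, with no overlap between the 3 subsets that every library held. Gamma delta cells lay at -3.40 ± 0.34 against CD4 cells (edgeR adjusted p = 1.61e-05). The difference between CD8 and CD4 cells, -1.02 ± 0.29, did not pass (edgeR adjusted p = 0.0914).

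Pdcd1 was highest in gamma delta cells in 3 of the 4 libraries. Their levels were 120, 251, 160 and 433 CPM in WT SC, KO SC, WT IP and KO IP, and 9 of 32, 72 of 122, 11 of 19 and 30 of 38 cells had a UMI. CD4 cells had 6.76 and 7.72 CPM in WT SC and KO SC, but 183 and 43.9 CPM in WT IP and KO IP, the first of which exceeded the gamma delta level of its own library. The edgeR difference of gamma delta from CD4 cells was 3.09 ± 0.95 and did not pass (adjusted p = 0.0659). It passed with DESeq2 (adjusted p = 0.000730) and without the cells over 50000 UMIs (edgeR adjusted p = 0.0485), among 5 alternatives in which it passed, and the adjusted p ranged from 0.000730 to 0.370 over all of them. No Pdcd1 UMI was counted in 802 B cells or 766 stromal cells, which allows shares of cells with a UMI of up to 0.374% and 0.392%. Regulatory cells had 40.8 and 56.2 CPM in WT SC and KO SC, and neither against CD4 (1.82 ± 1.37, edgeR adjusted p = 0.541) nor against CD8 cells (2.26 ± 1.37, edgeR adjusted p = 0.375) was the difference past the threshold.

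Tigit and Cd274 also differed between subsets. Regulatory cells had 27.2 and 43.7 CPM of Tigit in WT SC and KO SC, where CD8 cells had 2.94 and 3.45 CPM, and the edgeR difference was 2.73 ± 0.73 (adjusted p = 0.0195). In gamma delta cells Tigit had 0, 2, 4 and 1 UMIs in WT SC, KO SC, WT IP and KO IP, and against CD4 cells, at 17.4, 10.6, 21.8 and 32.0 CPM, it lay at -2.28 ± 0.77 (edgeR adjusted p = 0.0485). This passed narrowly, and not with median-of-ratios normalization (edgeR adjusted p = 0.0506), with doublets kept (0.0548), with no limit on markers of other cells (0.0552) or without the library block (0.247). The block also decided the Tigit and Cd274 differences of regulatory from CD8 cells, whose edgeR adjusted p was 0.436 and 0.0800 without it. Cd274, the ligand of PD-1, had 133 and 91.5 CPM in the regulatory cells of WT SC and KO SC and 37.3 to 60.5 CPM in CD8 cells of the 4 libraries, a difference of 1.31 ± 0.35 (edgeR adjusted p = 0.0194). Its gamma delta levels, 11.8 to 24.0 CPM, lay under all 4 CD4 levels, 35.7 to 148 CPM, at -1.84 ± 0.36 (edgeR adjusted p = 0.00145), but at -1.09 and past the threshold no longer when 1 Cd3 UMI sufficed for a T cell (edgeR adjusted p = 0.0589). B cells had 38.7 to 93.2 CPM of Cd274, so that this transcript was not particular to T cells.

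Tox was carried by all subsets. Regulatory cells had 1030 and 1650 CPM in WT SC and KO SC, above CD8 cells by 1.97 ± 0.39 (edgeR adjusted p = 0.00650). Against CD4 cells, at 703, 597, 698 and 340 CPM, the regulatory level was 1.29 ± 0.36 higher and did not pass (edgeR adjusted p = 0.0815). CD8 cells had 223 and 197 CPM in the SC libraries and 567 and 588 CPM in the IP libraries. Havcr2 was low in T cells, with 154 UMIs in all 1860, and a level of 9.31 CPM against 71.5 CPM in 146 myeloid cells. None of its 4 contrasts passed, the SEs running from 1.63 to 2.59. Lag3 had 71 UMIs in 40 T cells and was too low to be tested, and was not particular to T cells. Stromal cells, with median depths of 5451 to 23163.5 UMIs in the 4 libraries, had 5.72, 3.08, 8.76 and 9.74 CPM of Lag3 in WT SC, KO SC, WT IP and KO IP, where T cells had 4.55, 1.88, 20.7 and 6.26 CPM. Thinned to 2000 UMIs a cell, 0.776%, 0.551%, 2.09% and 2.15% of stromal cells had a Lag3 UMI, against 0.798%, 0.212%, 3.12% and 1.37% of T cells.

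**Figure D2:**
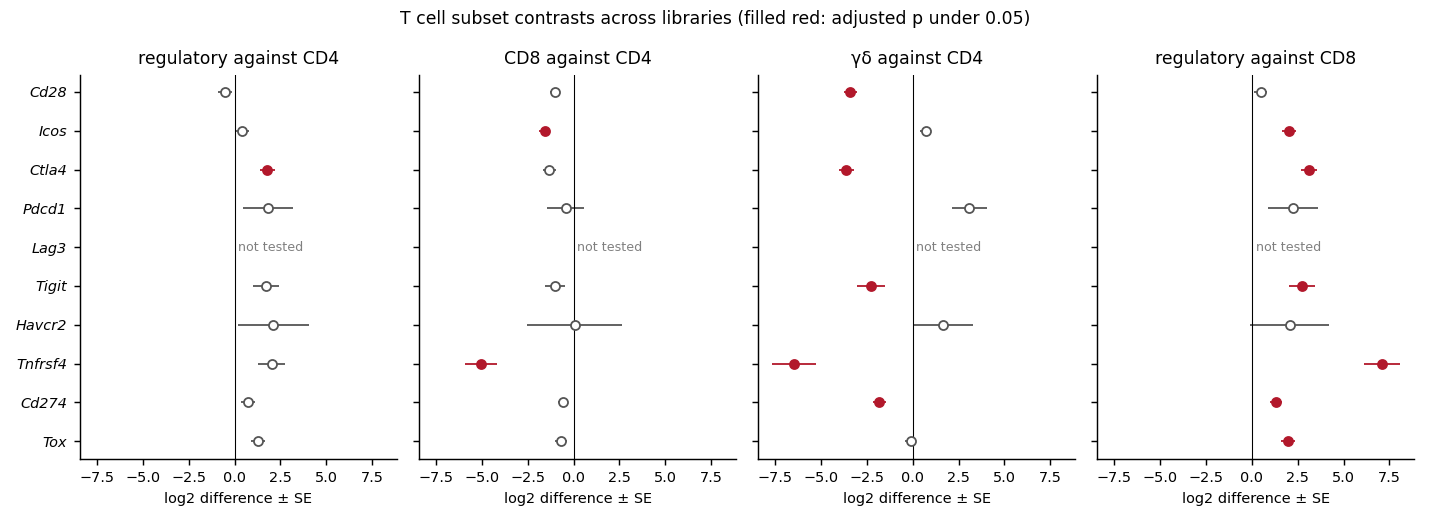
Log2 difference between T cell subsets for each gene (points) with its SE (bars) from edgeR over 14 profiles of subset and library; filled red points had an adjusted p under 0.05 over 6334 genes, and Lag3 was not tested. The 6 filled points of regulatory against CD8 cells lie right of 0, and the 5 of gamma delta against CD4 cells left of 0.

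Of the 9 members tested, 1 was higher in regulatory than in CD4 cells, where 1.75% of all 6334 genes were higher and 2.98% passed either way, and the members had a median difference of 1.72 against -0.00 for all genes. In CD8 against CD4 cells 2 were lower (1.74% of all genes were, 2.62% either way), with a median of -1.02 against -0.01. In gamma delta against CD4 cells 5 were lower (7.03% of all genes were, 17.4% either way), with a median of -1.84 against -0.02. In regulatory against CD8 cells 6 were higher (6.62% of all genes were, 10.9% either way), with a median of 2.06 against -0.01. At an unadjusted p under 0.05 the counts were 4, 5, 7 and 6 in the same order, in either direction. The share of all genes at that looser threshold is not given here, so these counts cannot be set against the percentages above. Regulatory profiles came only from the SC libraries, so that leaving out WT SC or KO SC left 1 of them, assumed to vary like the other profiles. In regulatory against CD8 cells Icos alone then passed without WT SC and no member without KO SC, with differences of 2.95 and 3.10 for Ctla4 and 7.10 and 5.79 for Tnfrsf4 in these smaller fits. In regulatory against CD4 cells no member passed without either SC library, and Ctla4, Tox and Tnfrsf4 passed without KO IP. In CD8 against CD4 cells Icos passed without WT SC, no member without KO SC, Ctla4 and Icos without WT IP, and Ctla4, Tox, Cd28 and Tnfrsf4 without KO IP. In gamma delta against CD4 cells Ctla4, Cd28 and Cd274 passed without any 1 library, while Tigit was lost without WT SC, KO SC or KO IP and Tnfrsf4 without either SC library, and Pdcd1 passed without WT IP.

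The other genes of these pathways, a list of 47 coreceptors, ligands, TNF receptors, SLAM receptors, exhaustion factors and adaptors, were tested in the same edgeR fit, where 35 passed the filter on low counts. Regulatory against CD4 cells gave 2 higher genes, Cd86 (2.73 ± 0.56, adjusted p = 0.0133), a ligand of CD28 and CTLA-4, and Tnfrsf18 (1.49 ± 0.30, adjusted p = 0.0108), the gene of the costimulatory receptor GITR. The B cell genes Cd79a, Cd79b, Ms4a1, Ighm and Cd74 summed to 1302 and 379 CPM in regulatory cells of WT SC and KO SC, with Ms4a1 at 0 in both. In CD4 cells of these libraries they summed to 98.6 and 87.3 CPM. Their part in the Cd86 difference was not tested. The 1 lower gene was Tcf7 (-1.87 ± 0.34, adjusted p = 0.00564), a factor of naive and memory-like T cells. In CD8 against CD4 cells 2 genes were higher, Nr4a2 (1.40 ± 0.18) and Eomes (3.27 ± 0.77), and 4 lower, Cd40lg (-4.39 ± 0.55), Cd5 (-1.53 ± 0.21), Cd200r1 (-3.28 ± 0.60) and Cd200 (-2.25 ± 0.51). In gamma delta against CD4 cells 3 were higher, Nr4a2 (0.96 ± 0.18), Zap70 (0.90 ± 0.18) and Tnfrsf1b (0.83 ± 0.20), and 11 lower, led by Cd5 (-3.79 ± 0.28), Slamf6 (-3.38 ± 0.35), Btla (-2.75 ± 0.42), Cd27 (-1.37 ± 0.24) and Tcf7 (-1.42 ± 0.25). In regulatory against CD8 cells 9 were higher, led by Cd5 (1.99 ± 0.26), Tnfrsf18 (2.25 ± 0.29), Cd200r1 (4.96 ± 0.69), Cd200 (3.62 ± 0.59) and Batf (1.68 ± 0.32), and 2 lower, Tcf7 (-1.501 ± 0.33) and Nr4a2 (-1.01 ± 0.24). Of all 6334 genes, 111 were higher and 78 lower in the first contrast, 56 and 110 in the second, 655 and 445 in the third and 419 and 274 in the last. The 3 higher pathway genes in gamma delta cells and the 2 lower in regulatory against CD8 cells were near these shares.

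KO was then compared with WT within each depot. With 1 library per group no test was possible, so levels are set side by side with a log2 ratio, after adding 0.5 UMI, and its exact 95% interval, which covers counting error only and not the differences between mice. Genes with at least 20 UMIs in the pair were compared, in classes with at least 20 cells in both libraries, and a ratio of at least 2-fold is counted. The median of all genes was at -0.14 in all T cells of SC fat, at -0.12 in its CD4 and CD8 cells, at -0.11 in its gamma delta cells and at 0.13 in IP CD8 cells.

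Gamma delta T cells held the largest KO to WT ratio among the members compared in SC fat. Icos had 489 CPM in WT SC, from 163 UMIs, and 1813 CPM in KO SC, from 1605 UMIs, a log2 ratio of 1.89 (95% interval 1.66 to 2.13), or 3.70-fold. The share of gamma delta cells with an Icos UMI was 71.9% in WT SC (exact 95% interval 53.3 to 86.3%, n = 32 cells) and 87.7% in KO SC (80.5 to 93.0%, n = 122). Thinned to 2000 UMIs a cell, the shares were 46.1% and 80.2%. Over its 18 alternatives the ratio kept between 1.80 and 2.01, though those that changed only the minimum number of UMIs could not move it.

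Pdcd1 in the same cells had 120 CPM in WT SC, from 40 UMIs, and 251 CPM in KO SC, from 222 UMIs, a log2 ratio of 1.05 (0.57 to 1.59). Of the 40 UMIs of WT SC, 16 came from 1 cell, and without the top cell of each library the ratio was 1.68. The share of cells with a UMI was 28.1% (13.7 to 46.7%) in WT SC and 59.0% (49.7 to 67.8%) in KO SC, or 12.5% and 34.7% after thinning. Cd28 went the other way, with 102 CPM in WT SC and 50.8 CPM in KO SC and a ratio of -1.01 (-1.68 to -0.32). Havcr2 had 59.9 and 30.5 CPM (-0.98, -1.86 to -0.06), Tox 429 and 531 CPM (0.31, 0.04 to 0.59), Ctla4 36.0 and 31.6 CPM (-0.22, -1.21 to 0.93) and Cd274 24.0 and 16.9 CPM (-0.54, -1.83 to 0.94). Of the 7 members compared, 3 were at least 2-fold apart, against 14.6% of all 6063 genes.

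In IP fat the WT library held 19 gamma delta cells, under the minimum, so its values are given without a call. Icos had 527 CPM in WT IP and 1012 CPM in KO IP (0.94, 0.60 to 1.29), and Pdcd1 160 and 433 CPM (1.42, 0.84 to 2.09), both higher in KO as in SC fat. Tox had 810 and 550 CPM (-0.56, -0.88 to -0.23). Ctla4 had 1 UMI in WT IP and 34 in KO IP (3.47, 1.46 to 9.38), and Cd28 had 14 and 5 UMIs.

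The gamma delta cells of the libraries were not alike in other genes. A UMI of Cd163l1, Blk or Il23r, which are known from gamma delta cells that make interleukin 17, was found in 22 of 32, 102 of 122, 11 of 19 and 36 of 38 cells of WT SC, KO SC, WT IP and KO IP. Among these cells alone, chosen after the data were seen, Icos had 643 and 2239 CPM in WT SC and KO SC (log2 ratio 1.80) and 869 and 1064 CPM in WT IP and KO IP (0.29). Pdcd1 had 164 and 308 CPM in SC (0.90) and 232 and 455 CPM in IP (0.94). All 45 Cd28 UMIs of KO SC lay in the gamma delta cells without such a marker, and the cells with one had 28.7, 0, 10.1 and 0 CPM in WT SC, KO SC, WT IP and KO IP. Il17a itself had 108, 1361, 663 and 202 CPM in gamma delta cells in the same order. The naive and homing genes Ccr7, Lef1, Tcf7, S1pr1 and Klf2 summed to 1154, 398, 663 and 339 CPM, and Ccl5, Nkg7 and Gzmk to 1034, 1373, 2804 and 439 CPM. The stromal markers Col1a1, Col1a2, Col3a1, Dcn, Gsn and Pdgfra summed to 18.0 CPM in WT SC (3 of 6 with a UMI, Col1a1, Dcn and Pdgfra at 0), 435 CPM in KO SC (6 of 6), 53.2 CPM in WT IP (4 of 6) and 42.8 CPM in KO IP (4 of 6). Stromal cells of KO SC had no Icos and no Pdcd1 UMI in 191 cells. Of these 191 cells, 71 had a barcode shared with WT IP, and 80 were under 2000 UMIs. Such shallow cells could show little of either gene, so whether stromal transcripts played a part cannot be read from these counts. The part of these differences between the gamma delta cells in the KO to WT ratios was not tested.

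**Figure D3:**
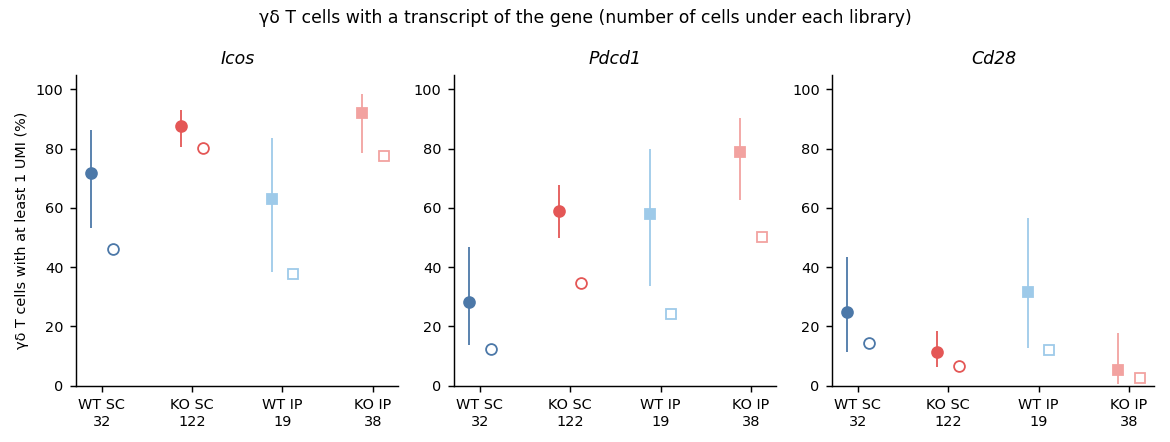
Share of gamma delta T cells with at least 1 UMI of Icos, Pdcd1 and Cd28 in each library (percent), as counted with an exact 95% binomial interval (filled) and after thinning each cell to 2000 UMIs (open, no interval); cell numbers stand under each library. Icos and Pdcd1 were found in a larger share of cells in each KO library than in the WT library of the same depot, thinned or not, and Cd28 in a smaller share.

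In CD4 cells of SC fat 3 of 9 members were at least 2-fold apart, against 8.4% of all genes, but 1 with each cell weighted equally and none without the top cell of each gene. Cd274 had 78.3 CPM in WT SC and 35.7 CPM in KO SC (-1.13, -1.61 to -0.66), and its ratio lay between -1.48 and -0.79 over the alternatives. Tnfrsf4 had 269 and 126 CPM (-1.09, -1.34 to -0.84), but -0.29 without the top cell of each library. Havcr2 had 4.83 and 12.5 CPM (1.27, -0.03 to 3.11), with 18 of its 26 UMIs in KO SC from 1 cell. Icos had 485 and 736 CPM (0.60, 0.46 to 0.75). In IP fat 3 of 7 members were at least 2-fold apart (10.5% of all genes), Pdcd1 at 183 CPM in WT IP and 43.9 in KO IP (-2.01, -3.17 to -1.08), Tox at 698 and 340 CPM (-1.04, -1.44 to -0.65) and Cd274 at 148 and 67.9 CPM (-1.11, -2.06 to -0.25). Cd274 was thus lower in the CD4 cells of KO than of WT in both depots. The regulatory markers named above summed to 424 and 192 CPM in the CD4 cells of WT SC and KO SC and to 109 and 328 CPM in those of WT IP and KO IP. The gamma delta markers summed to 38.6 and 188 CPM in SC and to 8.73 and 184 CPM in IP, and Ccl5, Nkg7 and Gzmk to 15.5 and 18.3 CPM in SC and to 2173 and 911 CPM in IP. Handling genes (Fos, Fosb, Jun, Junb, Egr1, Hspa1a, Hspa1b and Dnajb1) summed to 4133, 2797, 3186 and 3735 CPM in the CD4 cells of WT SC, KO SC, WT IP and KO IP. The part of these lists in the ratios was not tested.

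Regulatory cells could be compared in SC fat only, where 1 of 9 members, Havcr2, was at least 2-fold apart (11.8% of all genes). It had 5 UMIs in WT SC, all in 1 cell, and 22 UMIs in 7 cells of KO SC (1.32, -0.01 to 3.19). Tox had 1030 CPM in WT SC and 1650 CPM in KO SC (0.68, 0.49 to 0.88), Icos 704 and 1105 CPM (0.65, 0.42 to 0.89) and Tnfrsf4 602 and 728 CPM (0.27, 0.01 to 0.54). Ctla4, at 1757 and 1874 CPM, had a ratio of 0.09 (-0.06 to 0.25), and Cd28, at 428 and 453 CPM, one of 0.08 (-0.24 to 0.41). The B cell genes Cd79a, Cd79b, Ms4a1, Ighm and Cd74 summed to 1302 CPM in the regulatory cells of WT SC (3 of 5 with a UMI, Cd79a and Ms4a1 at 0) and to 379 CPM in those of KO SC (4 of 5, Ms4a1 at 0), and their part was not tested.

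CD8 cells of SC fat, the largest class, showed none of 7 members at least 2-fold apart (4.88% of all genes). Ctla4 had 152 CPM in WT SC and 186 CPM in KO SC (0.30, 0.11 to 0.49), Tox 223 and 197 CPM (-0.18, -0.34 to -0.01), Icos 196 and 188 CPM (-0.06, -0.23 to 0.12), Cd28 276 and 263 CPM (-0.07, -0.21 to 0.08) and Cd274 41.2 and 39.7 CPM (-0.06, -0.43 to 0.34). These 5 intervals lie within 2-fold, while those of Pdcd1 (-0.85, -2.08 to 0.45) and Tigit (0.16, -1.20 to 1.87) reach past it, from 11 and 14 and from 6 and 16 UMIs. Pdcd1 came to between -1.35 and -0.74 over its alternatives, and 1 member was at least 2-fold apart under 4 of the alternatives for this class. In IP fat 2 of 8 members were at least 2-fold apart (15.3% of all genes). Tigit had 6 UMIs in WT IP and 14 in KO IP (1.49, 0.09 to 3.23), or 9 in KO IP without the cell of 107406 UMIs (1.53, -0.09 to 3.34), which is under the minimum of 20 UMIs. Havcr2 had 5 and 34 UMIs (2.99, 1.74 to 4.81), of which 29 came from the KO IP cell of 107406 UMIs, and 1.32 with each cell weighted equally.

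**Figure D4:**
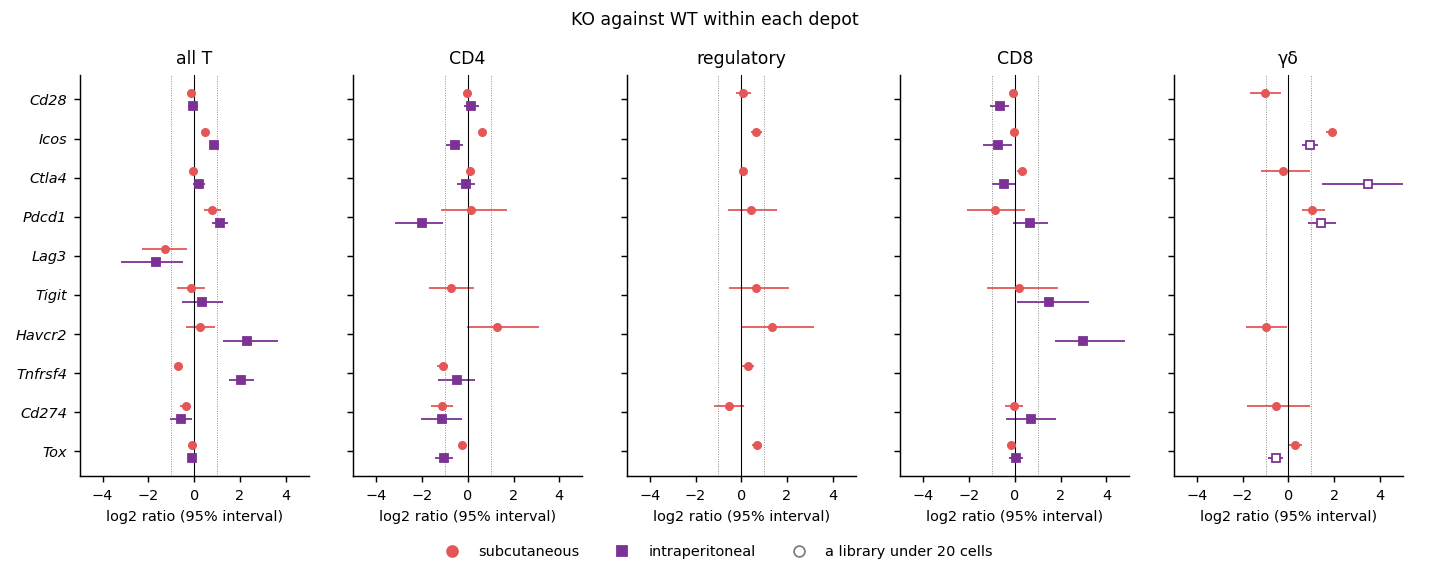
Log2 ratio of KO to WT in SC (circles) and IP (squares) fat for each gene with at least 20 UMIs in the pair, in all T cells and in each subset, with exact 95% intervals of counting error that are clipped at the axis limits; dotted lines mark 2-fold, and open symbols a library with fewer than 20 cells. In gamma delta cells Icos and Pdcd1 lie right of 0 in both depots, and Cd274 in CD4 cells left of 0 in both.

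Over all T cells, which mix the subsets in different shares (gamma delta cells made up 7.00% and 10.5% of the T cells of WT and KO SC fat, and 15.3% and 31.4% of those of WT and KO IP fat), Icos had 380 CPM in WT SC and 526 in KO SC (0.47, 0.39 to 0.55) and 290 CPM in WT IP and 532 in KO IP (0.87, 0.68 to 1.07). Pdcd1 had 17.1 and 29.9 CPM in SC (0.80, 0.44 to 1.18) and 81.9 and 179 CPM in IP (1.12, 0.77 to 1.49). In SC fat 1 of 10 members, Lag3 with 21 and 18 UMIs (-1.27, -2.27 to -0.30), was at least 2-fold apart (6.83% of all genes). In IP fat 4 were (9.08% of all genes), Pdcd1, Havcr2, Tnfrsf4 and Lag3. With CD4, CD8 and gamma delta cells weighted equally and other T cells left out, Pdcd1 had a ratio of 0.50 and Tnfrsf4 of 0.02. Havcr2 had one of 1.03 without its top cell. Without the cells over 50000 UMIs 2 of the members were at least 2-fold apart. Ctla4 (-0.07), Tox (-0.11) and Cd28 (-0.13) were near 0 in SC fat, and their direction turned with scaling to the median of all genes. Of the 47 pathway genes, the genes at least 2-fold apart the same way in both depots were Cd160 in all T cells (-1.13 in SC and -1.39 in IP), an inhibitory receptor, and Tbx21 in CD4 cells (-1.95 and -1.44), the gene of T-bet. Counted over the list, 8 of 39 genes compared in SC T cells were at least 2-fold lower in KO and none higher, and 2 of 37 in IP T cells were lower and none higher, with medians of -0.47 and -0.09 against -0.14 and 0.05 for all genes.

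IP fat was then compared with SC fat within each genotype, in the same way. Among the members with at least 20 UMIs in the pair, Pdcd1, the gene of PD-1, had the largest ratio in CD4 cells of both genotypes and in CD8 cells of WT. CD8 cells had 5.40 CPM in WT SC and 71.9 in WT IP (3.70, 2.68 to 4.90), and 3.02 in KO SC and 114 in KO IP (5.21, 4.31 to 6.25), or 4.50 in KO without the cell of 107406 UMIs. A Pdcd1 UMI was found in 7 of 188 and 6 of 488 CD8 cells of SC fat and in 12 of 37 and 5 of 26 of IP fat. CD4 cells had 6.76 and 183 CPM in WT (4.68, 3.59 to 6.16) and 7.72 and 43.9 CPM in KO (2.53, 1.26 to 3.71). The Pdcd1 levels of the 2 IP libraries lay above those of both SC libraries in each of these subsets, with no overlap.

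Tox in CD8 cells had 223 CPM in WT SC and 567 in WT IP (1.35, 1.11 to 1.59) and 197 CPM in KO SC and 588 in KO IP (1.58, 1.34 to 1.81). Counted over the subset, 2 of 6 members were at least 2-fold apart in WT CD8 cells (12.9% of all genes), Pdcd1 and Tox, and 4 of 8 in KO CD8 cells (31.1%), Pdcd1, Tox, Tigit and Havcr2. The median of all genes stood at 0.39 in the latter, and at 0.31, 0.13 and 0.19 in all T, CD4 and gamma delta cells of KO, and at 0.11 in all T cells of WT. Icos and Tox in all KO T cells (0.02 and 0.25) turned direction when scaled to it. Tigit had 16 UMIs in KO SC and 14 in KO IP (3.78, 2.62 to 4.90, and 3.81 without the cell of 107406 UMIs), and Havcr2 1 and 34 UMIs (8.49, 6.47 to 14.39), 29 of them in that single cell. Without the cells over 50000 UMIs Havcr2 fell under 20 UMIs, and Cd274 (60.5 against 39.7 CPM, 0.64 with all cells) came to 1.21. Ctla4 had 152 and 274 CPM in WT (0.86, 0.52 to 1.18) and 186 and 195 CPM in KO (0.08, -0.34 to 0.45). Icos had 196 and 181 CPM in WT (-0.10, -0.51 to 0.26) and 188 and 108 CPM in KO (-0.78, -1.36 to -0.30).

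The inhibitory receptors lay together in some CD8 cells of IP fat. UMIs of 2 or more of Pdcd1, Lag3, Tigit and Havcr2 were found in 2 of 188 CD8 cells of WT SC (1.06%, exact 95% interval 0.129 to 3.79%), 3 of 488 of KO SC (0.615%, 0.127 to 1.79%), 5 of 37 of WT IP (13.5%, 4.54 to 28.8%) and 5 of 26 of KO IP (19.2%, 6.55 to 39.4%), or 4 of 25 without the cell of 107406 UMIs (exact 95% interval 4.54 to 36.1%). UMIs of 3 of them were found in 2 cells of WT IP and 5 of KO IP, of all 4 in 1 cell of WT IP, and of more than 2 in no CD8 cell of SC fat. Each of these 8 cells, the cell of 107406 UMIs among them, also had UMIs of Gzmk, Nkg7 and Ccl5, the genes of granzyme K and other products of effector and memory CD8 cells. None had a Ccr7 UMI, and 7 had a Tox UMI. Gzmk, Nkg7 and Ccl5 summed to 5452 and 8484 CPM over all CD8 cells of WT IP and KO IP. Whether they were particular to these 8 cells was not tested. Lef1, another naive and homing gene, had 4, 0 and 1 UMIs in those of WT IP and 0, 2, 2, 0 and 14 in those of KO IP. In the regulatory cells, 3 of 22 in WT SC and 13 of 48 in KO SC had 2 or more of the 4 receptors. So had 6 of 109, 1 of 284, 5 of 32 and 1 of 28 CD4 cells of WT SC, KO SC, WT IP and KO IP. For gamma delta cells the counts were 3 of 32, 19 of 122, 4 of 19 and 2 of 38 in the same order. Cells with 2 or more receptors were thus not particular to CD8 cells.

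CD8 and CD4 cells of the depots differed in naive and homing genes. The 5 genes summed to 2887 and 2651 CPM in the CD8 cells of WT SC and KO SC and to 1355 and 789.9 CPM in those of WT IP and KO IP, all 5 with UMIs in each. In CD4 cells the sums were 3055, 2898, 978 and 1011 CPM in the same order. Split after the data were seen, cells with under 3 UMIs of Ccr7 and Lef1 together were 7.45% and 3.89% of CD8 cells in WT SC and KO SC and 48.6% and 69.2% in WT IP and KO IP. Among them Pdcd1 had 63.7 CPM in WT SC (6 UMIs), 40.1 in KO SC (6 UMIs), 160.3 in WT IP (23 UMIs) and 100.5 in KO IP (13 UMIs), and among the other CD8 cells 2.57, 1.78, 17.2 and 125 CPM, where the last rests on the cell of 107406 UMIs with its 21 Pdcd1 UMIs. In WT SC, KO SC and WT IP the level was higher in the cells low in homing genes, with intervals that do not overlap, and in KO IP the 2 levels had overlapping intervals. Without that cell the other 7 CD8 cells of KO IP with at least 3 UMIs of these genes had 0 Pdcd1 UMIs, a limit of 49.4 CPM, under the interval of the cells low in them (53.5 to 172 CPM).

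In all T cells 4 of 10 members were at least 2-fold apart in WT (11.9% of all genes), Pdcd1 (2.26), Lag3 (2.18) and Tigit (1.20) higher in IP and Tnfrsf4 (-1.83) lower. Tnfrsf4 lay between -2.02 and -0.79 over its alternatives, and at -0.92 in CD4 cells. Of its 535 UMIs in WT SC, 177 came from 22 regulatory cells, of which WT IP held 1. In KO 4 of 10 were (22.5%), Pdcd1 (2.58), Havcr2 (2.09), Lag3 (1.80) and Tigit (1.69), all higher in IP, but Havcr2 had 0.33 without the cells over 50000 UMIs. In CD4 cells 2 of 9 were in each genotype, Pdcd1 and Lag3 (1.40, -0.09 to 2.72, and 0.63 without the top cell of each library) in WT (18.2% of all genes) and Pdcd1 and Tigit (1.64, 0.21 to 2.81) in KO (21.1%). Icos in KO CD4 cells had 736 CPM in SC and 391 in IP (-0.90, -1.22 to -0.62), where WT had 485 and 585 CPM (0.27, -0.02 to 0.55). Gamma delta cells of KO had 3 of 7 members at least 2-fold apart (19.4%), Ctla4 (1.61, 0.85 to 2.39) higher in IP and Havcr2 (-2.86, -8.78 to -0.82) and Cd28 (-1.71, -3.53 to -0.51) lower. Icos had -0.84 (-1.01 to -0.67) and Pdcd1 0.79 (0.48 to 1.09) there.

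**Figure D5:**
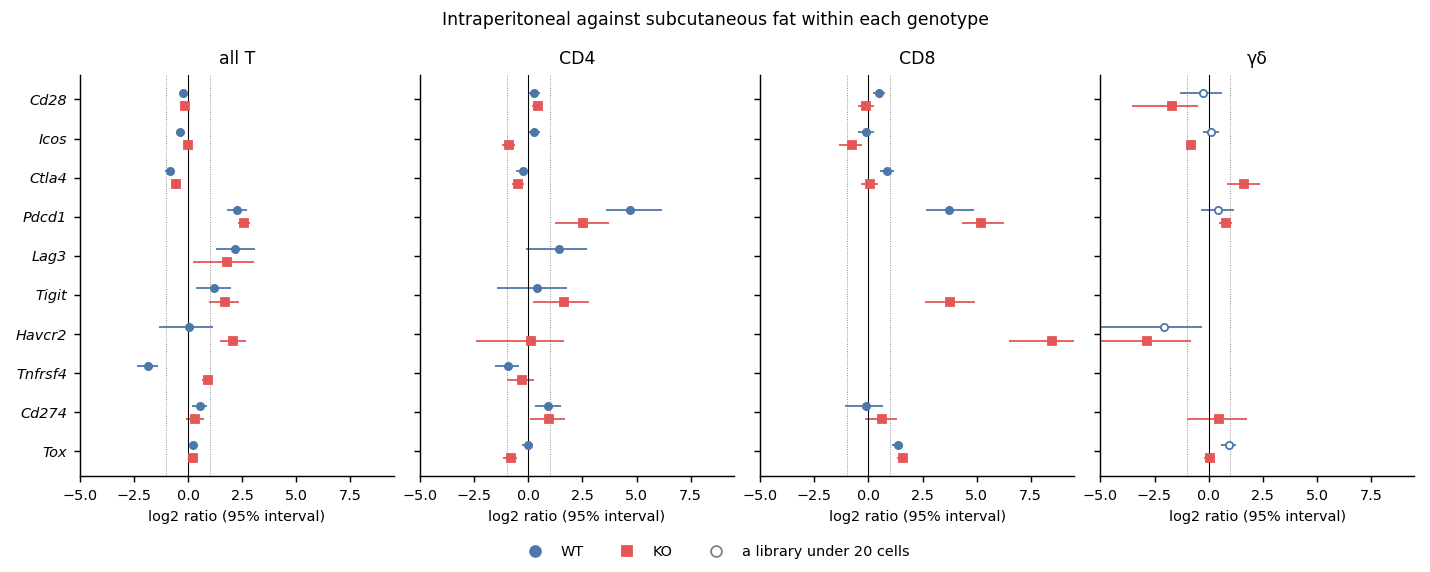
Log2 ratio of IP to SC fat in WT (circles) and KO (squares) for each gene with at least 20 UMIs in the pair, in all T cells and in CD4, CD8 and gamma delta cells, with exact 95% intervals of counting error clipped at the axis limits; dotted lines mark 2-fold and open symbols a library with fewer than 20 cells. Pdcd1 in CD4 and CD8 cells and Tox in CD8 cells lie right of the 2-fold line in both genotypes.

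Among the 47 pathway genes, those at least 2-fold higher in IP in both genotypes included Tbx21 in all T cells (2.88 in WT and 3.27 in KO), CD4 cells (4.06 and 4.57) and CD8 cells (2.38 and 3.47). Eomes, the gene of the T-bet relative eomesodermin, was higher in CD8 cells (2.01 and 2.50), as were Entpd1 (4.76 and 5.18), Sh2d1a (1.25 and 2.002), Tnfrsf9 (1.48 and 1.34) and Irf4 (1.24 and 1.22). The cell of 107406 UMIs held 36.1% of the UMIs of KO IP CD8 cells, and values of these genes without it are not given. In CD4 cells Slamf1 (1.91 and 1.74), Cd226 (1.25 and 2.40), Pdcd1lg2 (1.78 and 2.18), Cd200r1 (1.22 and 2.42) and Prdm1 (1.84 and 1.07) were higher in both. Over all T cells Prdm1, Eomes, Entpd1, Cd160 and Cd80 were higher in both, and Btla (-2.05 and -1.15) and Cd86 (-3.04 and -1.69) lower in both. Some counting intervals reached past 0: Irf4 in KO CD8 cells (-0.40 to 2.36) and Cd80 in all WT T cells (-0.10 to 2.01). So did Cd200r1 in WT CD4 cells (-0.26 to 2.48) and Prdm1 in KO CD4 cells (-0.32 to 2.15). Of 39 pathway genes compared in WT T cells, 8 were at least 2-fold higher in IP and 4 lower, and of 38 in KO T cells 10 were higher and 5 lower, where 11.9% and 22.5% of all genes were at least 2-fold apart either way and the median of all genes was at 0.11 and 0.31.

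The genes whose levels ran most like those of a member were found by Pearson's r of log2(CPM + 10) over the 14 profiles, among 10049 genes with at least 50 UMIs in T cells, as a description without a test. The profiles share libraries, and rare genes share the scatter of low counts. Pdcd1 was most like Laptm5 (r = 0.9497), Ctla4 like Lrig1 (0.916), Lag3 like B4gat1 (0.860), Tigit like Mphosph6 (0.910), Havcr2 like Rab8a (0.844), Icos like Ankrd6 (0.920), Tox like Hacd3 (0.878), Cd28 like Ms4a6b (0.958) with Trac (0.955) and Fyb (0.952) next, Tnfrsf4 like Ccr8 (0.943), and Cd274 like Pcna (0.918) with Cd5 (0.916) next.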

How the data were processed

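Adipose tissue of 4 groups was profiled by droplet scRNAseq (Chromium 3' v3), 1 library per group. Per the file headers, the authors deposited UMI counts per gene and barcode from Cell Ranger 7.0.0, and the submitters' processing notes also name STAR 2.6 and mm10. Whether introns were counted is not given in the sources used here. The counts were used as deposited. A minimum of 200 detected genes and a maximum of 25% mitochondrial UMIs left 4136 of 4927 barcodes, and 23 doublets (0.556%, Scrublet in scanpy 1.11.5, expected rate 5%) were removed. T cells had at least 2 UMIs of Cd3d, Cd3e and Cd3g together and at most 1 UMI of each of 3 marker sets of other cells (of B cells, of myeloid cells, and of stromal and vessel cells). They were set to subsets by Trdc, Foxp3, Cd8a, Cd8b1 and Cd4 UMIs.

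Levels are CPM of a class with exact Poisson 95% intervals, and shares have Clopper-Pearson intervals. Shares were also computed for each cell thinned to 2000 UMIs, leaving out shallower cells (0 to 2 cells in a gamma delta or regulatory class). Among stromal cells this left out 9 of 93, 80 of 191, 19 of 268 and 17 of 214 in WT SC, KO SC, WT IP and KO IP. KO against WT and IP against SC had 1 library each, so no p-value is given, and intervals and limits (3 UMIs for a count of 0) cover counting error only. Log2 ratios have exact binomial intervals. Subsets were compared on counts summed per subset and library (at least 10 cells, 14 profiles) with edgeR 4.0.16 (R 4.3.3), TMM, filterByExpr, a robust quasi-likelihood test, the library as a block and Benjamini-Hochberg adjustment over 6334 genes at 0.05, without the 8 genes of the subset rule. Cells of 1 library share animals and processing, so that these p-values measure the spread between the profiles of these libraries. Scripts were tested on simulated data. Alternatives changed the cell filters, the subset rule, the normalization, the filter on low counts, the added count and the tool (DESeq2 1.42.0), and left out each library.

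Named were the 10 members, genes of a fixed pathway list past the edgeR threshold (up to 5 of smallest adjusted p in each direction) or at least 2-fold the same way in both depots or both genotypes, and the genes most like each member. Some genes of the marker lists are not reported here and were left out of their sums. The members and lists were chosen with earlier results of these data known. Gene positions are from GENCODE (GRCm38; 32235 of 32290 identifiers matched). Promoters are from RefSeq (GRCm38.p6), in which 6 of the 10 members matched.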

Additional observations from a re-analysis of the deposited data

Results flagged for a closer look

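In 3 cases the KO to WT ratio lay on opposite sides of 0 in SC and IP fat with both counting intervals clear of 0, among members with at least 20 UMIs in each pair and classes of at least 20 cells in each library. Each direction is that of 1 library against 1 other, and the difference between the depots was not tested. Tnfrsf4 in all T cells had a log2 ratio of -0.70 in SC and 2.03 in IP. In SC, 156 of the 535 UMIs of WT came from 1 CD4 cell. In IP, 51 of the 149 UMIs of KO came from its 2 regulatory cells, where WT had 1 such cell with 0 UMIs. CD4, CD8 and gamma delta cells of KO IP held 25, 13 and 0 UMIs. The rest, more than the regulatory cells held, lay in T cells that met no subset rule. CD4 cells of WT IP held 32 of its 39 UMIs. With CD4, CD8 and gamma delta cells weighted equally and other T cells left out, the ratio was 0.02. Icos in CD4 cells had 0.60 in SC (736 CPM in KO and 485 in WT) and -0.58 in IP (391 and 585 CPM). Ctla4 in CD8 cells had 0.30 in SC (186 and 152 CPM) and -0.49 in IP (195 and 274 CPM), where the KO class held the cell of 107406 UMIs.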

How the results depend on the processing

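Of 720 values of single members in contrasts between subsets, 653 kept their direction and side of the threshold, and of 2305 log2 ratios 2187 stayed inside their interval. The 2305 include settings that changed only the minimum number of UMIs, where a ratio could not move, so this count overstates how stable the ratios were. The members at least 2-fold apart in all T cells, KO against WT, were 0 in SC with at least 50 UMIs and 2 without the top cell of each gene, against 1. In IP they were 1 with each cell weighted equally, against 4. They were 2 there with at least 50 UMIs, with CD4, CD8 and gamma delta cells weighted equally, or without the cells over 50000 UMIs. In SC CD4 cells they were 1 with each cell weighted equally and 0 without the top cell, against 3. Members past the threshold in regulatory against CD4 cells (1) were 0 with 2 UMIs required for a subset, 3 with the wider regulatory rule, and 2 with DESeq2, without the filter on low counts or without the cells over 50000 UMIs. In CD8 against CD4 cells (2) they were 4 with DESeq2, 5 without the filter and 1 without the library block. Leaving out 1 library at a time gave 0 to 3 in regulatory against CD4, 0 to 4 in CD8 against CD4, 3 to 6 in gamma delta against CD4 and 0 to 7 in regulatory against CD8 cells. Requiring 2 UMIs for a subset set the share of CD4 cells to 13.6% of T cells in WT SC, 12.004% in KO SC and 15.7% in KO IP, and that of CD8 cells in KO SC to 38.8%. Thinning set the share of gamma delta cells with a Pdcd1 UMI to 12.5%, 34.7%, 24.0% and 50.2% in WT SC, KO SC, WT IP and KO IP, with an Icos UMI to 46.1%, 80.2%, 37.8% and 77.7%, and that of regulatory cells with a Tnfrsf4 UMI to 54.9% in WT SC and 62.6% in KO SC. Havcr2 in CD8 against CD4 cells, which had no call, turned from 0.05 to -0.19 with 2 UMIs for a subset, -0.13 with the wider rule, -0.0097 without the filter, -0.016 with at least 20 cells, and -1.82 without the cells over 50000 UMIs, and lay between -2.69 and 1.86 when 1 library was left out (-0.25 without WT IP). Leaving out 1 library also turned Tox in gamma delta against CD4 cells (-0.28 to 0.13), Havcr2 in regulatory against CD8 cells (-0.12 without KO SC to 4.50 without KO IP, where it passed) and Pdcd1 in CD8 against CD4 cells (-1.13 to 0.20). The cause of these shifts was not tested. The settings without shared barcodes, without the cells over 50000 UMIs and without the top cell, and the type 17 and homing splits, were chosen after seeing the data. No paired analysis was possible because KO against WT and IP against SC had 1 library per group, while the contrasts between subsets already held the library as a block. Lag3 was under the minimum of 20 UMIs in KO against WT of each SC and each IP subset and was compared only over all T cells.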

Other observations

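NK cells, which belong to no comparison above, also held some of these transcripts. They were set by NK marker UMIs and the lack of a Trac UMI. Unlike B, myeloid and stromal cells, they were not required to lack every Cd3 UMI. Whether T cells were among them was not tested. Over the 89 NK cells of the 4 libraries Tigit had 12 UMIs in 12 cells (13.5%, exact 95% interval 7.17 to 22.4%), Lag3 7 UMIs in 6 cells, Icos 32 UMIs in 19 cells, Cd28 68 UMIs in 28 cells and Tox 126 UMIs in 41 cells (46.1%, 35.4 to 57.0%). Tnfrsf4 had none, which allows a share of cells with a UMI of up to 3.37%.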
